A study of Homo sapiens with 12 samples.

Results

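The difference between 2 enzalutamide-resistant prostate cancer cell lines in their response to CXCR7 knockdown was measured over all 12 RNA-Seq libraries of the study. LNCaP-EnzR cells (LNCaP MDVr in the labels, titled P23) were kept in 2 µM enzalutamide and C4-2B-EnzR cells (C4-2B MDVr, titled P15) in 10 µM, so the line and the dose cannot be told apart. Each line was infected with a control lentivirus (pLKO, labelled LKO) or with a lentivirus carrying a hairpin against CXCR7 (shCXCR7), and RNA was taken 4 days after infection, with 3 libraries per group. Both lines are established cell lines, and enzalutamide was present in every culture. Nothing says whether the libraries of a group came from separate cultures, and p-values therefore cover the spread among these libraries alone, which may be technical. The study describes its C4-2B-EnzR RNA-Seq as duplicate, while the labels give 3 libraries per group, all used here. Which hairpin was used, and its sequence, was not found in the files read.

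CXCR7 is an atypical chemokine receptor, encoded by ACKR3, that binds CXCL12, takes it up and signals through β-arrestin rather than through G proteins. Enzalutamide blocks the androgen receptor, the transcription factor on which luminal prostate cells depend. C4-2B cells were derived from LNCaP cells through growth in castrated hosts, so the lines share an origin.

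The response of a line is the mean of its 3 shCXCR7 libraries minus the mean of its 3 control libraries, on the log2(rescaled RPKM + 0.25) scale, where rescaled RPKM is the deposited RPKM divided by a median-of-ratios factor per library. The line difference is the C4-2B-EnzR response minus the LNCaP-EnzR response. A positive line difference means that a gene rose more, or fell less, in C4-2B-EnzR cells. The pseudocount of 0.25 shrinks the changes of genes with low values. The line difference was tested with limma over 14202 genes with a deposited RPKM of at least 0.5 in at least 3 libraries, and a gene is called at a Benjamini-Hochberg adjusted p under 0.05 and a line difference of at least 2-fold.

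Reads in genes, recovered from the steps of the deposited values, ranged from 6380395 to 9831807 per library. LNCaP-EnzR shCXCR7 replicate 3 stood apart. Its rescaling factor was 0.471, against 1.01 to 1.13 in the other 11 libraries, and 1636 genes were at 0 in it, against 8719 to 9652. Of 5096 genes at 0 in all other libraries, 3685 were above 0 in this one. Over all 5096 the median in it was 0.497 rescaled RPKM, a low level that enters any sum of markers there. Summed blood cell markers (6 genes) reached 5.84 rescaled RPKM in it and at most 0.461 in the control libraries of its line. Their part in the LNCaP-EnzR response was not tested. The limma fit was repeated without this library, and of the 68 named genes with a line difference HIST1H4I alone did not pass then. An alternative test on recovered reads (voom) was also repeated without it, and there 9 line differences of named genes beside ACKR3 did not pass. Luminal prostate markers summed to between 290.1 and 399.8 rescaled RPKM in all 4 groups, with none of the 6 at 0 in any group.

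ACKR3 (chr2:236537122-236582354, GRCh38) fell in both lines and kept a smaller share of its control level in C4-2B-EnzR cells. In LNCaP-EnzR cells its rescaled RPKM was 135, 129.6 and 123 in the control and 61.7, 55.8 and 44.1 in the shCXCR7 libraries. The C4-2B-EnzR values were 75.7, 78.6 and 77.5 in the control and 20.4, 21.6 and 17.4 in the shCXCR7 libraries. No shCXCR7 library overlapped a control library of its line, and the level left was 41.8% of the control mean for LNCaP-EnzR and 25.6% for C4-2B-EnzR. A 2-sided exact permutation test gave p = 0.1 for either line, the smallest that 3 against 3 libraries allow. Groups were likewise apart in 47.8% of all tested genes for LNCaP-EnzR and in 52.7% for C4-2B-EnzR. The line difference of ACKR3 was -0.69 with a standard error of 0.16 (limma adjusted p = 0.0183), -0.83 without LNCaP-EnzR shCXCR7 replicate 3 (adjusted p = 0.00248) and -0.65 without LNCaP-EnzR control replicate 3 (adjusted p = 0.0557). Permuting the hairpin labels within both lines gave a 2-sided exact p of 0.565 over 400 splits (smallest possible 0.005), a test whose splits also shuffle the fall shared by both lines. In the deposited RPKM the line difference of ACKR3 was -0.35 (limma adjusted p = 0.796). After rescaling, the depth of the knockdown thus moved with the line, and its part in the other line differences was not tested.

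The lines differed in their response at 340 genes (2.39% of those tested), of which 83 (0.584%) were higher and 257 (1.81%) lower in C4-2B-EnzR cells. Without LNCaP-EnzR shCXCR7 replicate 3, 139 (0.992%) were higher and 233 (1.66%) lower of 14010 genes (2.66% in either direction), so the share of higher calls was 24.4% with the library and 37.4% without it. The genes called in the same direction in both fits numbered 278 (1.96%), 68 higher (0.479%) and 210 lower (1.48%). That share also moved with the scaling, to 41.7% under quantile normalization and 37.7% in the deposited RPKM, where 20 genes were higher and 33 lower. Deposited values move the median line difference of all genes to 0.33, from 0.017 after rescaling, and 48 line differences of named genes beside ACKR3 did not pass there. Of the named line differences beside ACKR3, 13 did not pass in voom, 11 with no filter on low values and 10 with a replicate block within each line.

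**Figure D1:**
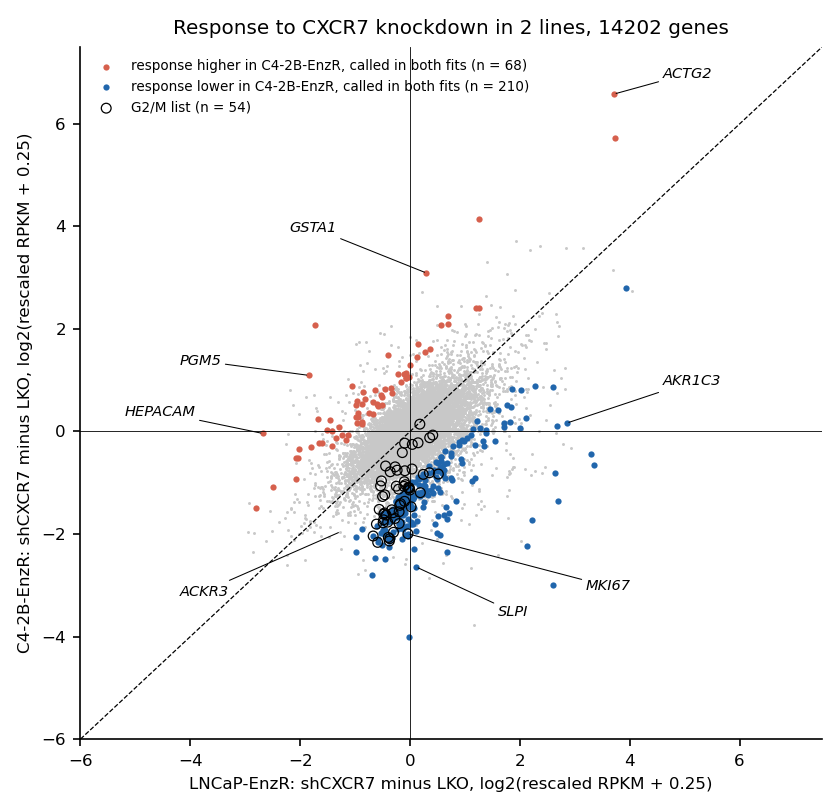
Response to shCXCR7 of 14202 genes in LNCaP-EnzR (x axis) and C4-2B-EnzR cells (y axis), both as shCXCR7 minus control on the log2(rescaled RPKM + 0.25) scale, with the 278 genes called in both fits coloured, the 54 genes of the G2/M list circled and equal responses on the dashed line. Most G2/M genes lie below that line, spread along the y axis and close to 0 on the x axis.

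Most of the lower genes changed in C4-2B-EnzR cells only. Of the 210, 130 did so, as falls, and 33 changed in LNCaP-EnzR cells only, as rises. The genes were chosen by the sign of their line difference, which sets the direction of a change in 1 line only. These directions are therefore no separate result, and the same holds for the higher genes. Another 26 changed in both lines in the same direction and 21 in opposite directions. Each response was counted at a limma adjusted p under 0.05 in the fit of all 12 libraries alone. That limit was passed by 37.9% of all genes in C4-2B-EnzR and 37.6% in LNCaP-EnzR cells. Of the 68 higher genes, 17 rose in C4-2B-EnzR cells only, 20 fell in LNCaP-EnzR cells only, 15 changed in both in the same direction, 15 in opposite directions and 1 in neither. A response past the test in 1 line and not in the other enters these counts only beside a tested line difference. In 37 of the 210 lower genes the control mean was under 0.5 RPKM in LNCaP-EnzR cells alone, and in 13 of the 68 higher genes in C4-2B-EnzR cells alone.

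The G2/M list held the largest share of line differences among the lists with tested members. Most of its genes fell in C4-2B-EnzR cells, and most did not pass the test in LNCaP-EnzR cells. Of the 54 genes of a G2/M list, which act in chromosome condensation, spindle assembly and cytokinesis, 37 had a lower response in C4-2B-EnzR cells at an adjusted p under 0.05 and 0 a higher one, against 4.89% and 5.82% of all genes (10.7% in either direction). With the 2-fold limit 31 were lower (1.81% of all genes), and 27 in both fits (1.48%). In C4-2B-EnzR cells 50 of the 54 fell and 0 rose (18.4% and 19.5% of all genes), with a median response of -1.17. In LNCaP-EnzR cells 10 fell and 3 rose (20.1% and 17.4% of all genes), with a median of -0.20. The median line difference was -1.11, and -1.11 without LNCaP-EnzR shCXCR7 replicate 3, when 33 genes were lower and 0 higher (5.82% and 5.97% of all genes, 11.8% in either direction). Leaving out each library in turn gave 27 to 46 lower genes (411 to 816 over all genes) and medians from -1.29 to -0.96. In the deposited RPKM 1 gene passed (33 lower over all 14202 genes), with a median of -0.81.

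The S phase list, genes of DNA replication and its licensing, moved the same way. Of 43 genes, 21 had a lower response in C4-2B-EnzR cells and 0 a higher one, against 4.89% and 5.82% of all genes. With the 2-fold limit 16 were lower (1.81% of all genes), and 14 in both fits (1.48%). There were 35 falls and 0 rises in C4-2B-EnzR cells (18.4% and 19.5% of all genes, median -0.89), against 5 falls and 1 rise in LNCaP-EnzR cells (20.1% and 17.4%, median -0.084). The median line difference was -0.88, and -0.83 without LNCaP-EnzR shCXCR7 replicate 3. Leaving out each library in turn gave 15 to 30 lower genes (411 to 816 over all genes), and 1 gene passed in the deposited RPKM (33 lower over all genes). With array weights, 36 S phase and 50 G2/M genes were lower, but so were 1811 of all 14202 genes, against 695 in the main fit. In bulk RNA, fewer cycling cells and less of these transcripts per cell cannot be told apart.

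The lines started from different levels of these genes. Among the G2/M genes the median log2 ratio of C4-2B-EnzR over LNCaP-EnzR was 1.27 in the control libraries and 0.21 in the shCXCR7 libraries. For the S phase genes it was 0.76 and -0.073, and over all genes 0.0037 and 0.011. After the knockdown, the C4-2B-EnzR levels thus lay near those of LNCaP-EnzR cells. The control libraries enter both the first ratio and the response, so these values are not independent of the line difference.

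MKI67 (chr10:128096659-128126423), which encodes the proliferation antigen Ki-67, showed this pattern in every library. Its C4-2B-EnzR values were 9.43, 11.6 and 13.2 in the control and 2.55, 2.78 and 2.62 in the shCXCR7 libraries, a fall to 23.2%. In LNCaP-EnzR cells they were 2.2, 1.96 and 2.05 and 1.86, 1.67 and 2.58, and these groups overlapped through shCXCR7 replicate 3 alone. The LNCaP-EnzR response was -0.038 (limma adjusted p = 0.868), and -0.20 without that library (adjusted p = 0.243). All 3 C4-2B-EnzR control libraries stood above the other 9 libraries. The line difference was -1.96 (standard error 0.21, adjusted p = 0.000339) and -1.8 without LNCaP-EnzR shCXCR7 replicate 3. CENPF, a kinetochore protein, went from 14.5 ± 2.92 to 3.25 ± 0.633 rescaled RPKM in C4-2B-EnzR (SD, n = 3 each, as for all pairs that follow) and from 4.47 ± 0.336 to 3.35 ± 0.44 in LNCaP-EnzR cells, with a line difference of -1.67 (standard error 0.22, adjusted p = 0.00114). FAM64A, a mitotic regulator also called PIMREG, went from 12.7 ± 3.12 to 2.81 ± 0.82 and from 3.74 ± 0.774 to 2.81 ± 0.238, a line difference of -1.72. The control level of these 3 genes was higher in C4-2B-EnzR cells, and the shCXCR7 means of the lines lay within a factor of 1.3 of each other.

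Replication genes named by the same rule differed in where they ended. CDC45, part of the replicative helicase, stood at 8.14, 10.5 and 12.8 in the C4-2B-EnzR control and 2.15, 2.0 and 1.74 in the shCXCR7 libraries, against 3.07, 2.42 and 2.35 and 1.86, 1.48 and 2.61 in LNCaP-EnzR cells. Its line difference was -1.88 (standard error 0.27, adjusted p = 0.00165). The LNCaP-EnzR response of CDC45 was -0.38 (limma adjusted p = 0.141), and passed as a fall without LNCaP-EnzR shCXCR7 replicate 3 (-0.58, adjusted p = 0.0288). DTL, a substrate receptor of the CUL4 ubiquitin ligase, had nearer control levels, 2.93, 3.4 and 4.35 in C4-2B-EnzR and 2.84, 2.69 and 2.63 in LNCaP-EnzR cells. After knockdown it stood at 0.808, 0.608 and 0.883 and at 2.74, 2.02 and 2.75. Here the C4-2B-EnzR shCXCR7 libraries were the lowest of all, and the line difference was -1.78 (standard error 0.23, adjusted p = 0.000975). EXO1, an exonuclease of mismatch repair and end resection, ended likewise below LNCaP-EnzR cells, at 0.756 ± 0.388 against 1.79 ± 0.337, from control levels of 3.9 ± 0.95 and 2.28 ± 0.315 (line difference -1.76, adjusted p = 0.00819). BLM, a RecQ helicase, fell from 1.66 ± 0.374 to 0.292 ± 0.0333 in C4-2B-EnzR cells against 0.365 ± 0.109 and 0.408 ± 0.234 in LNCaP-EnzR cells, with a line difference of -1.86 that did not pass under quantile normalization (-1.12, adjusted p = 0.122) or with a replicate block within each line (adjusted p = 0.054). It passed the filter on low values through the 3 C4-2B-EnzR control libraries alone, and was not tested without any 1 of them.

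**Figure D2:**
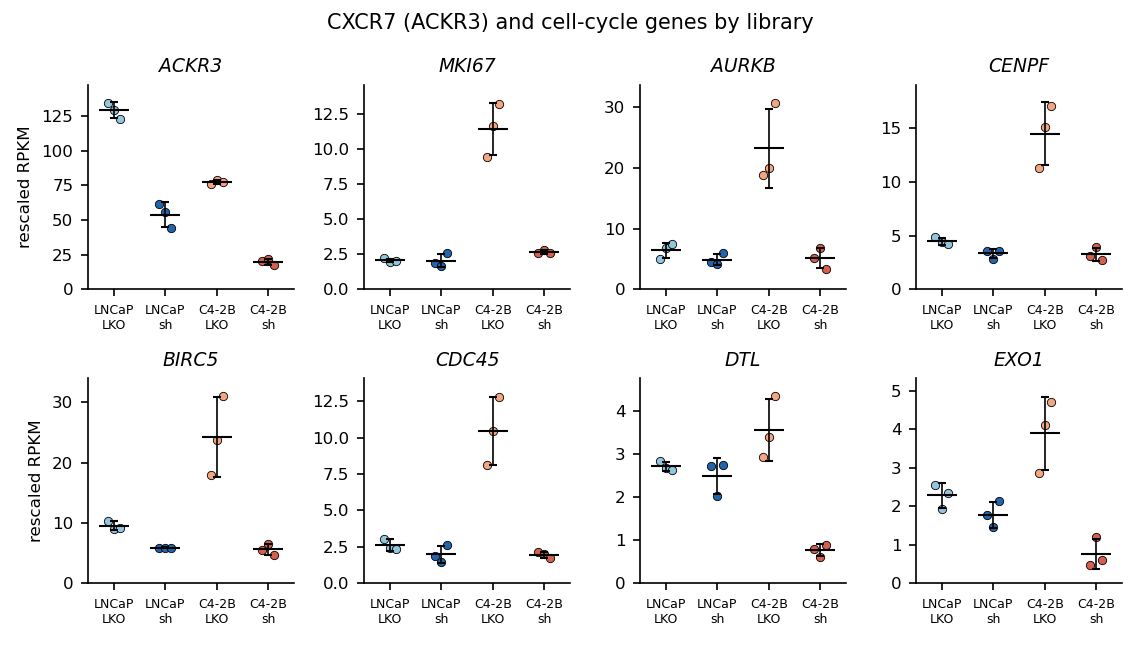
Rescaled RPKM (y axis, from 0) of ACKR3 and 7 cell-cycle genes in each library, with the mean and SD of 3 libraries per group, where sh stands for shCXCR7 and LKO for control. ACKR3 falls in both lines, while MKI67 falls from 11.4 to 2.65 in C4-2B-EnzR cells and reads 2.07 and 2.04 in LNCaP-EnzR cells.

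Of 24 tested partners of the Aurora kinases, the mitotic kinases that the study followed, 12 had a lower and 1 a higher response in C4-2B-EnzR cells (4.89% and 5.82% of all genes), with a median line difference of -0.77, and 0 passed in the deposited RPKM. Among the named genes are 4 subunits of the chromosomal passenger complex. AURKB, its kinase, stood at 18.9, 19.97 and 30.7 in the C4-2B-EnzR control and 5.2, 6.81 and 3.42 in the shCXCR7 libraries, and at 5.06, 6.86 and 7.43 and 4.54, 4.2 and 5.95 in LNCaP-EnzR cells. Its groups were apart in C4-2B-EnzR cells and overlapped in LNCaP-EnzR cells through shCXCR7 replicate 3 alone. Without that library the LNCaP-EnzR response of AURKB was -0.52 (limma adjusted p = 0.159). Its line difference was -1.76 (standard error 0.34, adjusted p = 0.00732). BIRC5 (survivin) fell in both lines, to 23.1% of control in C4-2B-EnzR and 61.7% in LNCaP-EnzR cells, with a line difference of -1.37 (standard error 0.23, adjusted p = 0.0035). INCENP fell to 37.3% and stood at 94.4% (line difference -1.29), and CDCA8 (borealin) fell to 37.6% and stood at 93.7% (-1.26). These 4 genes were called in both fits.

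AURKA itself fell in both lines, from 13.2 ± 3.93 to 5.2 ± 0.675 rescaled RPKM in C4-2B-EnzR (response -1.27, adjusted p = 6.89e-05) and from 4.45 ± 0.429 to 3.07 ± 0.101 in LNCaP-EnzR cells (response -0.50, adjusted p = 0.0289). The line difference of -0.77 (standard error 0.23) did not pass at a limma adjusted p of 0.0522, nor in 21 alternative settings. It passed in 5, among them the fit without C4-2B-EnzR control replicate 1 (-0.93, adjusted p = 0.0137). TPX2, which activates Aurora A on the spindle, fell to 32.2% in C4-2B-EnzR and 71.9% in LNCaP-EnzR cells, with a line difference of -1.12 (standard error 0.20, adjusted p = 0.00424). TACC3, an Aurora A substrate, fell to 31.9% and 71.2%, a line difference of -1.13 (standard error 0.18, adjusted p = 0.00318). Among upstream regulators, E2F1 had a line difference of -0.54 (adjusted p = 0.0716) and CDK1 of -0.52 (adjusted p = 0.171), and neither passed. E2F1 passed without LNCaP-EnzR shCXCR7 replicate 1 (-0.66, adjusted p = 0.0304) and CDK1 without C4-2B-EnzR control replicate 1 (-0.72, adjusted p = 0.026). CCND1, cyclin D1, fell in both lines, to 27.1% and 31.7% of control, with a line difference of -0.23 (standard error 0.10, adjusted p = 0.156). That of CCND1 passed in 4 alternative settings and did not in 21. It passed without LNCaP-EnzR shCXCR7 replicate 3 (-0.27, adjusted p = 0.0416) and under quantile normalization (-0.47, adjusted p = 0.0027), and turned to 0.11 in the deposited RPKM. With array weights the line differences of AURKA (-0.63, adjusted p = 0.0222), CDK1 (-0.61, adjusted p = 0.015) and CCND1 (-0.30, adjusted p = 0.00641) passed.

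The promoters of the cell-cycle genes were read because many mitotic genes carry a cell cycle homology region (CHR), a short element bound by the DREAM and MuvB complexes, and many S phase genes an E2F site. RefSeq promoters (GRCh38.p14, 250 bases before to 50 after the start site) matched 45 of the 54 G2/M genes and 33 of the 43 S phase genes. The words TTTGAA and TTCGAA, on either strand, were in 15 of 20 promoters of G2/M genes called lower in both fits (75%) and in 18 of 25 of the other G2/M genes (72%), against 16.6% of all 27305 promoters and 10.8% of those of 10694 tested genes. In S phase genes they were in 0 of 13 and 3 of 20. The E2F words TTTGGCGC, TTTCGCGC, TTTCCCGC and TTTGCCGC, on either strand, were in 9 of 13 promoters of called S phase genes (69.2%) and 7 of 20 of the others (35%). They were in 3.33% of all promoters and 5.37% of those of tested genes. The 2 sets of words were searched apart, so a base can belong to both. A match is a description of the letters alone, and the members of a list were chosen for their phase. The match nearest the start site is shown in capitals for 4 mitotic and 2 replication genes whose values are given above, each as 30 bases 5′ to 3′ on the strand of the gene, to show where the element sits near the start of these genes.
MKI67 (chr10:128126435-128126464, minus strand): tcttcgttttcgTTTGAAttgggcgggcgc
CENPF (chr1:214603215-214603244, plus strand): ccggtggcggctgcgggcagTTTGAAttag
INCENP (chr11:62123989-62124018, plus strand): tgagccttcagtTTTGAAaatcatagtttt
CDCA8 (chr1:37692481-37692510, plus strand): gtgactgtggagTTTGAAttgggtggcggt
DTL (chr1:212035729-212035758, plus strand): cgtgacgtcagTTTGGCGCggagtttggcg
EXO1 (chr1:241848197-241848226, plus strand): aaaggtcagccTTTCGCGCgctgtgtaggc
The CHR word begins 29 bases before the start site in MKI67, 10 in INCENP and 23 in CDCA8, and 40 after it in CENPF. The E2F word begins 8 bases before the start site in DTL and 4 after it in EXO1. For EXO1 the start site of the promoter used lies downstream of the gene start (chr1:241847986). The windows of AURKB (CHR) and of CDC45 and BLM (E2F) held no such word.

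A smaller set of genes went in opposite directions in the 2 lines. Of the genes called in both fits, 36 had opposite responses in the fit of all 12 libraries. Of these, 15 had a higher and 21 a lower line difference, and 23 of them reached a group mean of 5 RPKM. PGM5 (chr9:68356611-68531061), a phosphoglucomutase-like protein of adherens junctions, had the largest line difference of the 6 genes named by this rule. It fell in LNCaP-EnzR cells from 12.6, 13.3 and 12.3 to 3.61, 3.09 and 3.42 rescaled RPKM, and rose in C4-2B-EnzR cells from 0.334, 0.421 and 0.558 to 1.33, 1.1 and 1.19. The groups were apart in both lines, at levels that remained higher in LNCaP-EnzR cells, and the line difference was 2.94 (standard error 0.18, adjusted p = 1.08e-05) and 2.97 without LNCaP-EnzR shCXCR7 replicate 3. CITED2, a transcriptional co-regulator that binds p300 and CBP, fell from 125, 135 and 129.8 to 78.8, 80.03 and 63.5 in LNCaP-EnzR and rose from 16.2, 16.9 and 17.7 to 26.9, 26.5 and 25.5 in C4-2B-EnzR cells. Its line difference was 1.44 (standard error 0.12, adjusted p = 8.40e-05). ROBO3, a receptor of axon guidance, fell to 53.2% of control in LNCaP-EnzR and rose 1.93-fold in C4-2B-EnzR cells, a line difference of 1.64 (standard error 0.17, adjusted p = 0.000339). IL1RN, the interleukin-1 receptor antagonist, fell to 49.2% and rose 1.54-fold (line difference 1.57, standard error 0.25, adjusted p = 0.00275). All 4 stood higher in LNCaP-EnzR than in C4-2B-EnzR control libraries, and their lines lay nearer after knockdown.

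The reverse order was seen for 2 other named genes. RFC4, a subunit of the clamp loader of DNA replication, rose in LNCaP-EnzR cells from 5.33, 5.63 and 3.99 to 8.29, 7.45 and 7.51 and fell in C4-2B-EnzR cells from 11.9, 16.8 and 18 to 7.96, 10.5 and 8.79. All groups were apart within their line, and the line difference was -1.37 (standard error 0.23, adjusted p = 0.00339). SLC7A5, the large neutral amino acid transporter LAT1, fell from 30.6, 30.5 and 29.4 to 16.4, 16.3 and 14.9 in C4-2B-EnzR cells. In LNCaP-EnzR cells it rose from a low level, at 0.345, 0.377 and 0.318 in the control and 0.52, 0.541 and 1.42 in the shCXCR7 libraries, the last being the library that stands apart. Its line difference was -1.67 (standard error 0.31, adjusted p = 0.00604) and -1.31 without that library.

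**Figure D3:**
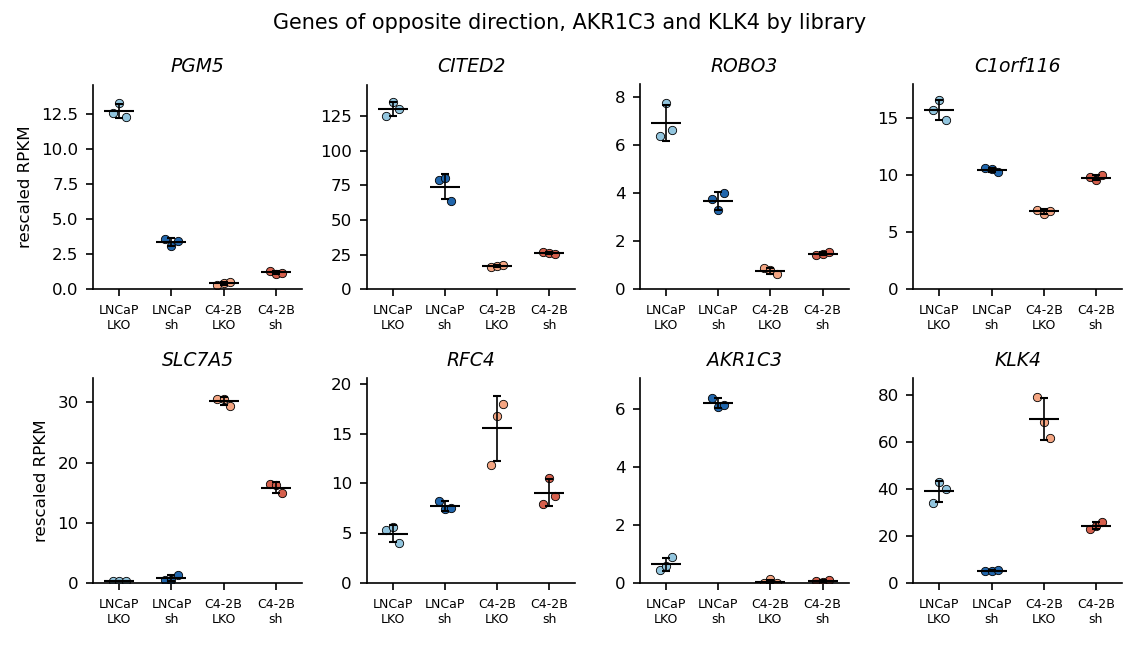
Rescaled RPKM (y axis, from 0) by library with the mean and SD of 3 libraries per group for 6 genes with opposite responses in the 2 lines and for AKR1C3 and KLK4. PGM5 falls to 26.5% of control in LNCaP-EnzR cells and rises 2.76-fold in C4-2B-EnzR cells.

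Smooth-muscle actins rose in both lines and further in C4-2B-EnzR cells. ACTG2 (chr2:73893008-73919865), enteric smooth-muscle actin, stood at 0.0784, 0 and 0 and 0, 0.0704 and 0 rescaled RPKM in the controls of LNCaP-EnzR and of C4-2B-EnzR, that is 1 read over the 3 libraries of each line. After knockdown it reached 2.9, 3.28 and 3.94 in LNCaP-EnzR and 27.9, 17.5 and 35 in C4-2B-EnzR cells. The line difference was 2.87 (standard error 0.33, adjusted p = 0.000468). ACTA2, aortic smooth-muscle actin, went from 0.733, 1.15 and 0.927 to 13, 19.1 and 14.6 in LNCaP-EnzR and from 0.923, 0.354 and 0.619 to 45.8, 33.2 and 60.2 in C4-2B-EnzR cells. Every shCXCR7 library of C4-2B-EnzR cells was above every one of LNCaP-EnzR cells for both genes, and the line difference of ACTA2 was 2.0 (standard error 0.35, adjusted p = 0.00477). The near-identical coding sequences of the actins can share reads, so the split between them is uncertain, and with voom on recovered reads the adjusted p was 0.284 for ACTG2 and 0.0571 for ACTA2 (0.19 and 0.0323 without LNCaP-EnzR shCXCR7 replicate 3). Of 20 tested contractile genes, 12 rose and 1 fell in LNCaP-EnzR (17.4% and 20.1% of all genes) and 13 rose and 1 fell in C4-2B-EnzR cells (19.5% and 18.4%), while 6 had a higher and 4 a lower line difference (5.82% and 4.89%). The median line difference was 0.37, and was 0.15 with voom, 0.17 with a pseudocount of 0.05, and -0.20 with no filter on low values, where 27 of the genes were tested. CSRP1, a LIM protein of the actin cytoskeleton, rose 2.05-fold in C4-2B-EnzR cells and stood at 95% of control in LNCaP-EnzR cells (line difference 1.11, standard error 0.15, adjusted p = 0.000975).

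The 19 tested genes of the epithelial-to-mesenchymal list split, with 2 higher and 2 lower line differences, against 5.82% and 4.89% of all genes (median -0.23, and 0.13 without LNCaP-EnzR shCXCR7 replicate 3). The sign of that median also turned under quantile normalization (0.018), with a pseudocount of 1 (0.019), with array weights (0.025) and in the deposited RPKM (0.084). VIM, vimentin, rose 2.86-fold to 18.3 ± 1.74 in LNCaP-EnzR and 5.91-fold to 19.7 ± 1.05 rescaled RPKM in C4-2B-EnzR cells, from control levels of 6.41 ± 0.713 and 3.33 ± 0.234, a line difference of 0.99 (standard error 0.14, adjusted p = 0.00121). TPM4, a tropomyosin, rose 3.03-fold and 4.75-fold (0.66, adjusted p = 0.024), and did not pass without LNCaP-EnzR control replicate 3, C4-2B-EnzR control replicate 2 or C4-2B-EnzR shCXCR7 replicate 3 (adjusted p up to 0.0688). COL5A1, a collagen chain, rose 4.55-fold in LNCaP-EnzR cells, from 0.626, 0.669 and 0.733 to 2.66, 2.88 and 3.67, and 1.42-fold in C4-2B-EnzR cells, where the groups overlapped (line difference -1.36, standard error 0.25, adjusted p = 0.00516). INHBA, the activin A subunit, fell from 11.9, 10.9 and 10.2 to 4.27, 3.78 and 3.38 in C4-2B-EnzR cells. In LNCaP-EnzR cells the 34 reads of INHBA in the shCXCR7 group all came from replicate 3, the line difference was -2.14 (adjusted p = 0.0478) with that library and -1.39 (adjusted p = 0.0023) without it. It did not pass in 9 of the 12 fits without 1 library, those that leave out a control library or a C4-2B-EnzR shCXCR7 library (adjusted p up to 0.0969), with a pseudocount of 0.05 (adjusted p = 0.192), or in voom with that library (-2.89, adjusted p = 0.18) and without it (-0.81, adjusted p = 0.654).

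Fibroblast markers summed to between 3.93 and 4.34 rescaled RPKM in LNCaP-EnzR controls and between 4.37 and 9.36 in LNCaP-EnzR shCXCR7 libraries. In C4-2B-EnzR cells the sums were 8.42 to 10.95 in the control and 8.13 to 9.41 in the shCXCR7 libraries. COL1A2 and FAP were at 0 in every library of the other groups, and above 0 somewhere in the LNCaP-EnzR shCXCR7 group. Kidney embryonic cell markers summed to at most 1.31 in LNCaP-EnzR control and 4.37 in LNCaP-EnzR shCXCR7 libraries. Their highest sums were 2.49 and 2.33 in the control and shCXCR7 libraries of C4-2B-EnzR cells. The LNCaP-EnzR shCXCR7 group holds replicate 3, in which 3685 of 5096 genes at 0 in all other libraries were above 0. The part of that library in the marker sums of its group was not tested. The part of other cells in the rise of the contractile genes was not tested in either line.

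**Figure D4:**
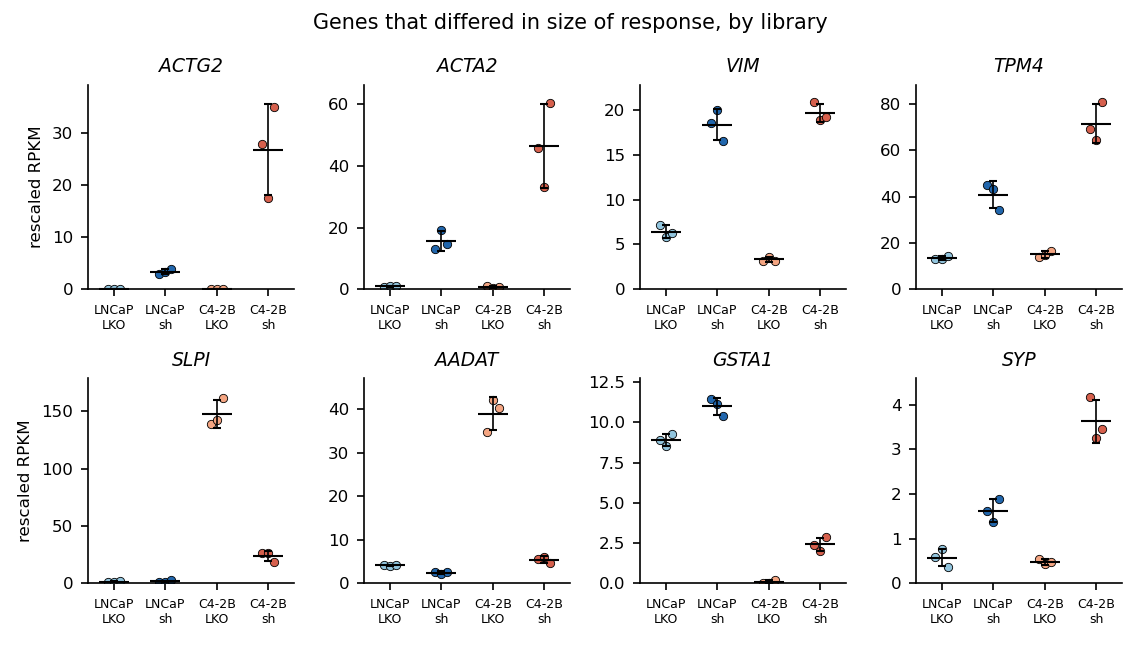
Rescaled RPKM (y axis, from 0) by library with the mean and SD of 3 libraries per group for 8 genes whose response differed in size between the lines. ACTG2 reaches a mean of 3.37 in LNCaP-EnzR cells against 26.8 in C4-2B-EnzR cells, and SLPI falls from 148 to 23.7 in C4-2B-EnzR cells.

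Several of the largest differences came from genes that were near 0 in 1 line. Where a group had 3 reads or fewer, the fitted line difference depends on the pseudocount and is no bound. SLPI (chr20:45252239-45254564), a secreted protease inhibitor, stood at 139, 143 and 162 in the control and 26.2, 26.6 and 18.4 in the shCXCR7 libraries of C4-2B-EnzR cells, and at 1.23, 1.04 and 1.82 and 0.792, 1.49 and 2.5 in LNCaP-EnzR cells. It fell to 16% in the line where it was abundant, with a line difference of -2.76 (standard error 0.40, adjusted p = 0.00165). AADAT, an aminotransferase of lysine and kynurenine breakdown, fell in both lines, from 34.7, 42 and 40.1 to 5.61, 6.06 and 4.57 in C4-2B-EnzR and from 4.29, 3.91 and 4.17 to 2.5, 2.17 and 2.7 in LNCaP-EnzR cells (line difference -2.1, standard error 0.16, adjusted p = 7.17e-05). CCDC85A fell from 11.5 ± 0.205 to 2.71 ± 0.121 in C4-2B-EnzR cells and was at 0.158 ± 0.0404 in LNCaP-EnzR controls (line difference -2.49, standard error 0.36, adjusted p = 0.00165). PIF1, a DNA helicase, fell from 6.01 ± 1.19 to 1.38 ± 0.216 in C4-2B-EnzR cells, and its line difference of -2.04 was -1.48 without LNCaP-EnzR shCXCR7 replicate 3 and did not pass without LNCaP-EnzR control replicate 3 or C4-2B-EnzR shCXCR7 replicate 3 (adjusted p up to 0.059) or with no filter on low values (adjusted p = 0.0511). PREX1, an exchange factor for Rac, fell from 27.9 ± 1.16 to 10.7 ± 0.61 in C4-2B-EnzR cells. In LNCaP-EnzR cells 143 of its 155 reads in the shCXCR7 group lay in replicate 3, its line difference was -2.21 (adjusted p = 0.0411) with and -1.45 (adjusted p = 0.00112) without it, and it did not pass in 9 of the 12 fits without 1 library, the same kinds as for INHBA (adjusted p up to 0.0874), or with a pseudocount of 0.05 (adjusted p = 0.0919).

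The opposite case was AKR1C3 (chr10:5048781-5107686), an aldo-keto reductase that makes testosterone from androstenedione. It rose 9.41-fold in LNCaP-EnzR cells, from 0.474, 0.589 and 0.912 to 6.4, 6.06 and 6.13 rescaled RPKM, with 46 reads over the control and 541 over the shCXCR7 libraries. In C4-2B-EnzR cells it had 3 reads over the control and 6 over the shCXCR7 libraries. The line difference was -2.69 (standard error 0.37, adjusted p = 0.00121). KRT6C, a stratified epithelial keratin, rose 8.16-fold in LNCaP-EnzR cells, from 0.866, 0.629 and 0.789 to 6.29, 6.05 and 6.29, and had 4 and 6 reads in the C4-2B-EnzR groups (line difference -2.57, standard error 0.35, adjusted p = 0.00121). Both genes have close paralogs that can share reads, and in voom neither difference passed (adjusted p = 0.187 for AKR1C3 and 0.137 for KRT6C). The line difference of KRT6C also did not pass with a pseudocount of 0.05 (limma adjusted p = 0.0654). HEPACAM, an adhesion protein, fell from 5.74, 5.65 and 5.07 to 0.444, 0.50 and 1.13 in LNCaP-EnzR cells, and 1 read was seen in the C4-2B-EnzR libraries (line difference 2.64, standard error 0.40, adjusted p = 0.002, voom adjusted p = 0.171, and 0.0228 without LNCaP-EnzR shCXCR7 replicate 3).

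GSTA1, a glutathione transferase with close paralogs, rose in C4-2B-EnzR cells from 4 reads over the control libraries to 2.36, 2.03 and 2.86 rescaled RPKM. In LNCaP-EnzR cells, where it was on, it read 8.87, 8.55 and 9.25 and 11.4, 11.2 and 10.4 (response 0.30, adjusted p = 0.288). Its line difference was 2.79 (standard error 0.29, adjusted p = 0.000339). KRT17, a basal keratin, was seen with 1 read over each line's control libraries and reached 0.20, 0.26 and 0.908 in LNCaP-EnzR and 4.01, 2.28 and 9.24 in C4-2B-EnzR shCXCR7 libraries (line difference 2.88, standard error 0.66, adjusted p = 0.0163, voom adjusted p = 0.256). KRT17 passed the filter on low values through the 3 C4-2B-EnzR shCXCR7 libraries alone, and was not tested without any 1 of them. Its place as the 1 gene of 5 tested basal epithelial genes with a line difference (10.7% of all genes) thus rests on that group. Of the non-coding genes, C5orf66, an antisense gene whose reads cannot be told from those of an overlapping partner without strand, fell to 23.3% of its LNCaP-EnzR control mean and 68% of its C4-2B-EnzR one (line difference 1.56, standard error 0.17, adjusted p = 0.000417), and FLJ23867 fell to 35.9% in LNCaP-EnzR cells and stood at 117% in C4-2B-EnzR cells (line difference 1.68, standard error 0.13, adjusted p = 7.99e-05). The small RNA genes MIR4519 and SNORA45B rest on few reads. MIR4519 had 10 reads over the C4-2B-EnzR control and 0 over the shCXCR7 libraries, and 15 and 24 in LNCaP-EnzR cells, and its line difference of -3.98 depends on the pseudocount (voom adjusted p = 0.082). SNORA45B had 27 and 16 reads in C4-2B-EnzR and 11 and 33 in LNCaP-EnzR cells, and its line difference of -2.11 did not pass without LNCaP-EnzR control replicate 3 (adjusted p = 0.0523) or in voom (adjusted p = 0.08).

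Of 27 tested androgen receptor targets, 14 fell and 3 rose in LNCaP-EnzR (20.1% and 17.4% of all genes) and 13 fell and 8 rose in C4-2B-EnzR cells (18.4% and 19.5%), while 5 had a higher and 2 a lower line difference (5.82% and 4.89%, median 0.14). KLK4, a kallikrein protease, fell in both lines, from 34.2, 43 and 40.01 to 5.04, 5.37 and 5.74 in LNCaP-EnzR and from 79, 68.3 and 61.5 to 23.1, 24.4 and 25.9 in C4-2B-EnzR cells. It kept 13.8% and 35.1% of control, a line difference of 1.3 (standard error 0.15, adjusted p = 0.000449). C1orf116, an androgen-regulated gene also called SARG, fell from 15.7 ± 0.864 to 10.4 ± 0.185 in LNCaP-EnzR and rose from 6.82 ± 0.186 to 9.78 ± 0.234 in C4-2B-EnzR cells (line difference 1.08, standard error 0.093, adjusted p = 8.40e-05). PPAP2A, a lipid phosphatase, fell to 29.97% and 49.5% (0.72, adjusted p = 0.00281).

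Of 24 neuroendocrine genes 8 passed the filter on low values, and 1 of these, SYP (synaptophysin), had a line difference, as did 10.7% of all genes. It rose in LNCaP-EnzR cells from 0.601, 0.761 and 0.371 to 1.62, 1.37 and 1.88 and in C4-2B-EnzR cells from 0.55, 0.424 and 0.471 to 4.18, 3.25 and 3.46 rescaled RPKM, 2.81-fold and 7.54-fold (line difference 1.2, standard error 0.28, adjusted p = 0.0173). It did not pass without C4-2B-EnzR shCXCR7 replicate 1 (adjusted p = 0.0586), with a replicate block within each line (adjusted p = 0.054) or in voom (adjusted p = 0.05 after rounding). ENO2, neuron-specific enolase, fell in both lines, to 45.2% and 57.9% of control, with a line difference of 0.34 (standard error 0.13) that did not pass (adjusted p = 0.108). CHGB, chromogranin B, was under the filter, with 2 reads over the LNCaP-EnzR controls, 43 after knockdown (40 of them in replicate 3), and 1 and 2 for C4-2B-EnzR.

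Of 30 tested targets of p53, 15 fell and 2 rose in LNCaP-EnzR (20.1% and 17.4% of all genes) and 14 fell and 3 rose in C4-2B-EnzR cells (18.4% and 19.5%), with 4 higher and 1 lower line differences (10.7% of all genes in either direction, median 0.15). TP53INP1, a stress-induced protein that acts with p53, fell from 123, 114 and 112 to 17.7, 14.1 and 13.2 in LNCaP-EnzR and from 53, 53.2 and 41.9 to 11.4, 12 and 14.1 in C4-2B-EnzR cells (line difference 0.99, standard error 0.17, adjusted p = 0.00464). SESN1, a sestrin that restrains mTORC1, fell to 31.8% and 61.1% (0.96, adjusted p = 0.00369). TIGAR, a fructose bisphosphatase, fell to 47.4% and 79.5% (0.71, adjusted p = 0.00604). PLK3, a polo-like kinase, fell further in C4-2B-EnzR cells, to 38.8% against 61% (-0.64, adjusted p = 0.0221), and did not pass without LNCaP-EnzR control replicate 1 or 3 or C4-2B-EnzR shCXCR7 replicate 2 (adjusted p up to 0.0617).

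Of 15 tested genes of ERK output, feedback and early targets of the MAP kinase cascade, 1 had a higher and 1 a lower line difference, near the 10.7% of all genes with either. SPRY1, a feedback inhibitor, fell in C4-2B-EnzR cells from 3.45, 4.9 and 3.56 to 1.42, 1.26 and 1.86 and read 0.618, 0.789 and 0.832 and 0.673, 0.74 and 1.29 in LNCaP-EnzR cells (line difference -1.43, standard error 0.31, adjusted p = 0.012, and -0.77 under quantile normalization, adjusted p = 0.222). DUSP4, a phosphatase of ERK, fell in LNCaP-EnzR cells from 3.7, 3.78 and 3.04 to 1.08, 1.27 and 2.0 and read 0.82, 0.779 and 0.644 and 0.627, 0.641 and 0.647 in C4-2B-EnzR cells. Its line difference was 1.01 (adjusted p = 0.031), 1.24 without LNCaP-EnzR shCXCR7 replicate 3, and it did not pass in 9 of the 12 fits without 1 library, all but those without LNCaP-EnzR control replicate 3, LNCaP-EnzR shCXCR7 replicate 3 or C4-2B-EnzR control replicate 1 (adjusted p up to 0.0884), or with the replicate block (adjusted p = 0.0588). Beyond ACKR3, 0 of the other tested genes of the CXCR7 axis, its β-arrestins, receptor kinases and effectors, had a line difference (12 tested with ACKR3).

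Of 24 tested genes of cholesterol synthesis, 11 fell and 3 rose in LNCaP-EnzR (20.1% and 17.4% of all genes) and 4 fell and 6 rose in C4-2B-EnzR cells (18.4% and 19.5%), with 6 higher and 1 lower line differences (5.82% and 4.89%), all under 2-fold. INSIG1, which holds the SREBP activator in the endoplasmic reticulum, fell to 66% in LNCaP-EnzR and stood at 97.1% in C4-2B-EnzR cells (line difference 0.55, standard error 0.12, adjusted p = 0.012). LSS, lanosterol synthase, fell to 75.1% and stood at 111% (0.54, adjusted p = 0.00604). FDFT1, squalene synthase, stood at 103% and rose 1.43-fold (0.48), and MSMO1, a sterol oxidase, fell to 75.2% and stood at 107% (0.52). FDFT1 did not pass in 4 of the 12 fits without 1 library (LNCaP-EnzR control replicates 2 and 3, C4-2B-EnzR shCXCR7 replicates 1 and 2) and MSMO1 in 7 (adjusted p up to 0.0828).

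In the glycolysis and hypoxia list, 3 of 30 tested genes had a higher and 3 a lower line difference, against 5.82% and 4.89% of all genes. ALDOC, an aldolase, fell from 59.5 ± 6.34 to 33 ± 3.97 rescaled RPKM in LNCaP-EnzR and read 31.9 ± 1.06 and 34 ± 1.15 in C4-2B-EnzR cells (line difference 0.93, standard error 0.14, adjusted p = 0.00188). BNIP3L, a mitophagy receptor, fell to 30.1% and 47.9% (0.69, not past the test without LNCaP-EnzR control replicate 3 or C4-2B-EnzR shCXCR7 replicate 2). SLC2A1, the glucose transporter GLUT1, stood at 117% in LNCaP-EnzR and fell to 73.2% in C4-2B-EnzR cells (line difference -0.66, standard error 0.13, adjusted p = 0.00779). PGK1, phosphoglycerate kinase, rose 2.26-fold and 1.41-fold (-0.66, adjusted p = 0.0421, not past the test in 10 of the 12 fits without 1 library or with the replicate block, adjusted p = 0.0506). DDIT4, an inhibitor of mTORC1 in the amino acid and ER stress list, fell to 38.6% and 57.2% (line difference 0.57, standard error 0.12, adjusted p = 0.0105), the 1 higher line difference of 29 tested genes there beside 1 lower (SLC7A5). Of 32 interferon-stimulated genes, 1 differed. Either count is under the 10.7% of all genes. IFITM1, a membrane protein that restricts viral entry, fell in C4-2B-EnzR cells from 2.59, 2.75 and 2.7 to 0.725, 1.0 and 1.5 and read 0.873, 1.05 and 1.13 and 1.21, 1.71 and 1.99 in LNCaP-EnzR cells, a line difference of -1.74 (standard error 0.30, adjusted p = 0.00408).

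Of 38 tested replication-dependent histone genes, 18 rose and 1 fell in LNCaP-EnzR (17.4% and 20.1% of all genes) and 16 rose and 3 fell in C4-2B-EnzR cells (19.5% and 18.4%). A higher line difference was seen in 4 and a lower one in 1, near the 10.7% of all genes with either. HIST1H2AE rose 3.24-fold and 6.23-fold (0.78, adjusted p = 0.0134), and its line difference did not pass in voom with all libraries (adjusted p = 0.173) or without LNCaP-EnzR shCXCR7 replicate 3 (adjusted p = 0.143). HIST1H2AC stood at 89.4% and rose 1.5-fold (0.75, adjusted p = 0.00842). HIST1H4I (1.91) rests on 5 reads in the C4-2B-EnzR controls and did not pass in 11 of the 12 fits without 1 library, all but the one without LNCaP-EnzR control replicate 3, or in voom (adjusted p = 0.0975). HIST2H2AC (-1.62) did not pass in 3, without LNCaP-EnzR control replicate 3, C4-2B-EnzR control replicate 2 or C4-2B-EnzR shCXCR7 replicate 1, or in voom (adjusted p = 0.0872). Histone genes are near copies of each other, so their reads may be split among them. Of 76 ribosomal protein genes, which have many pseudogene copies, 3 had a higher line difference and 0 a lower one, against 5.82% and 4.89% of all genes, with a median of 0.41. The count of higher genes was 42 with array weights, 19 with voom, 16 after the median RPKM of genes at 0 elsewhere was subtracted from LNCaP-EnzR shCXCR7 replicate 3, and 0 with the replicate block, and that of lower genes was 0 in each of these. Over all genes, 2066 of 14202 were higher with array weights, 1052 of 14100 after that subtraction and 611 of 14202 with the replicate block. RPL24, RPS18 and RPS7 had line differences of 0.69, 0.58 and 0.52, each short of the test in 7 or 8 of the 12 fits without 1 library (adjusted p up to 0.125). The median fell to 0.26 without LNCaP-EnzR shCXCR7 replicate 3 and to 0.05 under quantile normalization.

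**Figure D5:**
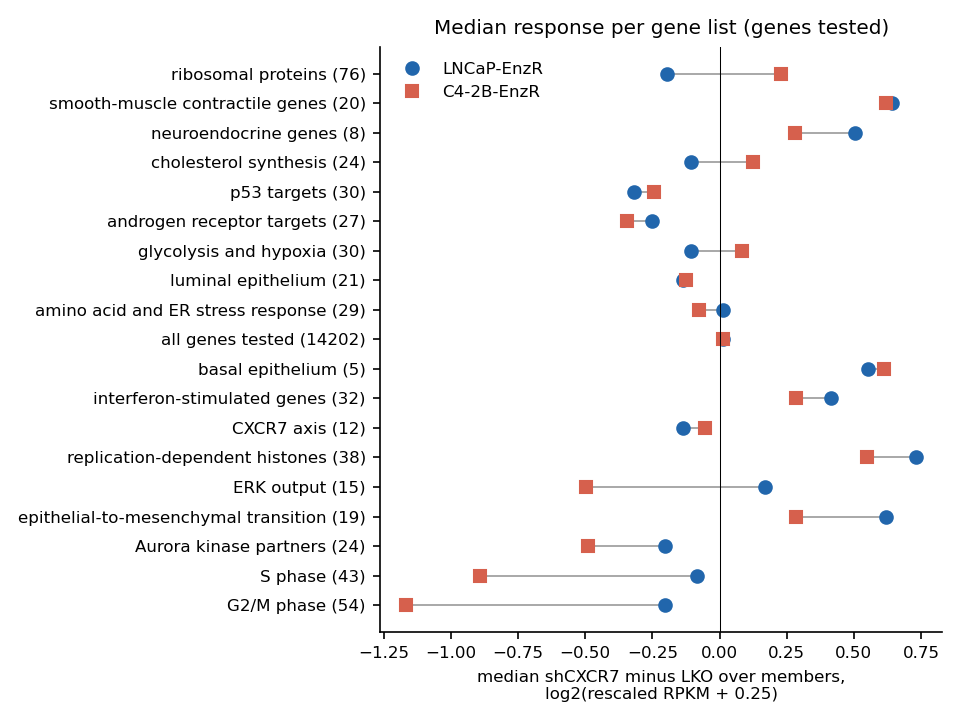
Median response to shCXCR7 over the tested members of each gene list in LNCaP-EnzR (circles) and C4-2B-EnzR cells (squares) on the log2(rescaled RPKM + 0.25) scale, ordered by the median line difference, with the number of tested members in brackets. The G2/M list sits at -0.20 and -1.17, the widest gap shown.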

How the data were processed

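RNA was sequenced single-end on an Illumina HiSeq instrument from NEBNext Ultra libraries, 12 in all. The authors aligned reads to hg38 with STAR and computed RPKM (reads scaled by gene length and depth) per gene with their own script, and the deposited table holds these RPKM values, not counts. For strand handling and annotation no source read here gives a statement. The table had 26475 lines, of which 32 without values and 4 with a repeated symbol were dropped.

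RPKM was divided by median-of-ratios factors from 14364 genes above 0 in every library. Genes with a deposited RPKM of at least 0.5 in 3 or more of the 12 libraries entered limma 3.58.1 (R 4.3.3), fitted to the 4 group means on log2(rescaled RPKM + 0.25) with Benjamini-Hochberg adjustment over all genes tested. This fit was repeated without LNCaP-EnzR shCXCR7 replicate 3. The values of 25028 of 25028 genes above 0 could be written as whole multiples of 1 read (tolerance 0.02 of a read). A gene above 0 in 1 library meets this by construction. In a check of 1109 genes under a tighter limit on reads, 797 were whole, and 0 were after the values were shuffled among genes. Whole reads were recovered on this basis, and limma's voom on them served as an alternative. The tests and read recovery were tested on simulated data. Pairs of replicates differed by more than counting noise in every group, and the replicate numbers were checked for pairing.

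Named genes were ACKR3 and the 10 largest line differences in each direction among genes called in both fits with a group mean of at least 5 RPKM. Further named genes were the 6 of these called genes with opposite responses in the fit of all 12 libraries and the largest smaller response. Up to 4 members per gene list were added, with the largest line difference at an adjusted p under 0.05. The last were 11 genes picked for their relevance to the study. The comparison, its members and the gene lists were chosen with earlier results of these data known. The 13 mitochondrially encoded genes were not tested. Among the genes this rule names, 2 are not reported here. Symbols are as deposited.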

Additional observations from a re-analysis of the deposited data

Results flagged for a closer look

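The response to shCXCR7 differed between the lines at an adjusted p under 0.05 in the limma interaction test for 68 named genes, and these were singled out for that difference. The values that follow are line differences on the log2(rescaled RPKM + 0.25) scale without LNCaP-EnzR shCXCR7 replicate 3. HIST1H4I was the 1 gene of these that did not pass without that library (adjusted p = 0.0685).

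Among cell-cycle and Aurora kinase genes the line difference was -1.8 for MKI67, -1.62 for AURKB, -1.66 for FAM64A, -1.62 for CENPF, -1.69 for CDC45, -1.61 for BLM and -1.73 for DTL. It was -1.66 for EXO1, -1.36 for BIRC5, -1.21 for INCENP, -1.18 for CDCA8, -1.13 for TPX2 and -1.12 for TACC3 in the others of these lists that are named.

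Higher responses in C4-2B-EnzR cells reached 3.35 for KRT17, 2.98 for ACTG2, 2.98 for HEPACAM, 2.97 for PGM5, 2.82 for GSTA1, 1.97 for ACTA2 and 1.94 for HIST1H4I. They were 1.73 for FLJ23867, 1.71 for ROBO3, 1.56 for IL1RN, 1.56 for C5orf66, 1.35 for KLK4, 1.34 for CITED2 and 1.31 for SYP in the next genes by size. Line differences under these came to 1.24 for DUSP4, 1.07 for C1orf116, 1.01 for CSRP1, 0.92 for VIM, 0.90 for TP53INP1, 0.83 for ALDOC and 0.81 for SESN1. Smaller positive values were 0.72 for HIST1H2AE, 0.67 for PPAP2A, 0.66 for HIST1H2AC, 0.63 for TIGAR, 0.58 for BNIP3L, 0.53 for TPM4 and 0.53 for LSS. The smallest positive values were 0.53 for RPL24, 0.50 for DDIT4, 0.49 for INSIG1, 0.43 for RPS18, 0.41 for MSMO1, 0.39 for FDFT1 and 0.38 for RPS7.

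Outside the cell cycle, lower responses in C4-2B-EnzR cells reached -3.52 for MIR4519, -2.71 for AKR1C3, -2.57 for KRT6C, -2.41 for SLPI, -2.2 for SNORA45B, -2.11 for CCDC85A and -2.04 for AADAT. Then came -1.62 for IFITM1, -1.48 for PIF1, -1.45 for PREX1, -1.39 for INHBA, -1.39 for RFC4, -1.32 for HIST2H2AC and -1.31 for SLC7A5. Smaller negative values were -1.25 for COL5A1, -1.21 for SPRY1, -0.83 for ACKR3, -0.83 for PGK1, -0.69 for SLC2A1 and -0.52 for PLK3.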

How the results depend on the processing

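Scaling mattered most. In the RPKM as deposited, 20 genes had a higher and 33 a lower line difference, the LNCaP-EnzR response held 326 rises and 944 falls, the C4-2B-EnzR response 411 rises and 524 falls, the line difference of ACKR3 was -0.35 (adjusted p = 0.796) and that of CCND1 turned to 0.11 (adjusted p = 0.933). Among the other named genes, 48 line differences no longer passed there. The cause was not tested.

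The count of higher genes was 130 under quantile normalization, 216 with array weights, 139 without LNCaP-EnzR shCXCR7 replicate 3 and 140 with voom without that library, an alternative chosen after seeing the data, as were the list counts under each setting. The count of lower genes was 170 with a pseudocount of 1 and 128 among genes with an RPKM of at least 5 in 3 libraries, where fewer genes were tested and 1646 rose in LNCaP-EnzR cells. Array weights gave 4291 rises and 3979 falls in C4-2B-EnzR cells. With no fold limit 826 genes were higher and 695 lower, and at an adjusted p under 0.001 there were 25 and 25. Voom with all libraries gave 71 higher and 299 lower genes.

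Leaving out each library in turn gave 67 to 139 higher and 193 to 276 lower genes, 1933 to 2733 rises and 2303 to 3036 falls in LNCaP-EnzR cells, and 2131 to 3403 rises and 2109 to 3077 falls in C4-2B-EnzR cells. The line difference of ACKR3 ranged from -0.83 to -0.58, and did not pass without LNCaP-EnzR control replicate 3 (-0.65, adjusted p = 0.0557). The response of ACKR3 ranged from -1.38 to -1.13 in LNCaP-EnzR and from -2.02 to -1.86 in C4-2B-EnzR cells. Of 68 named genes with a line difference, 50 held in every such fit that tested them and 18 were lost in at least 1.

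Libraries that share a replicate number did not deviate together (r from -0.10 to 0.043 over genes), so the numbers were not taken as pairs. With the replicate block 78 genes were higher and 233 lower, and with a replicate block within each line 75 and 225.

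Depth limits genes with few reads, and 3 libraries per group limit small differences. The rescaling factor of LNCaP-EnzR shCXCR7 replicate 3 was 0.471, against 1.01 to 1.13 in the other libraries, and the cause was not tested.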
